A study of Rattus norvegicus with 46 samples.

Results

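The comparison described here is the difference between blood and lung in the response to crystalline silica 6 months after exposure, that is, the silica minus air difference in blood minus the silica minus air difference in lung. Its members are all 22 samples taken at 6 months, of 46 samples in the series. They were chosen by their labels for time and tissue, and the blood and lung tables were joined by gene identifier. All groups are male Fischer 344 rats, called aged in the title of the series, and their age in months is not given in the labels. The 6 silica blood samples and 6 silica lung samples came from rats that breathed Min-U-Sil 5, a fine crystalline silica dust, at 15 mg/m3 by whole-body inhalation for 6 hours a day on 5 days. The 6 air blood samples and 4 air lung samples came from rats that breathed filtered air on the same schedule. No genetic change or other agent is named. RNA was sequenced from lung and from globin-depleted whole blood, both mixtures of cell types, in which fewer cells of a type and less RNA per cell cannot be told apart.

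Lung samples 19 and 24, 20 and 25 (air) and 30 and 31 (silica) differed by little more than counting noise and were averaged, which left 19 libraries: 2 air lungs, 5 silica lungs, 6 air bloods and 6 silica bloods. Within these pairs 10.1% to 11.5% of genes differed in a chi-square test at an unadjusted p under 0.05, against 35% to 93.4% in every other pair within a 6-month group. Whether different samples within a group are different rats is not stated in the labels, and the p-values cover only variation among the libraries analysed, which may be technical. Totals were 12080141 to 17519950 estimated counts in blood and 15753453 to 24369646 in lung (after averaging the pairs). The tissue labels matched their defining markers: Sftpc, a surfactant protein gene of alveolar type 2 cells, was at 4800 to 18600 CPM (counts relative to the scaled library total) in lung and at 0.144 CPM or less in blood, and Alas2, the haem synthesis gene of red cell precursors, was at 11100 to 72600 CPM in blood and 30.6 to 94.6 CPM in lung. Levels below are CPM scaled within each tissue, and they are compared between exposures and not between tissues.

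Several libraries stood apart before any test. The summed level of 35 genes of natural killer (NK) cells and large granular lymphocytes was 6642 and 5647 CPM in the 2 air lungs, 2225 CPM in silica lung 30-31 and 705 to 1001 CPM in the other 4 silica lungs. In blood the same sum was 3464 CPM in air blood 25, 763 to 1224 CPM in the other 5 air bloods and 490 to 1350 CPM in the silica bloods. Air blood 25 also had a scaling factor of 1.97, against 0.906 to 1.09 in the other air bloods, and silica blood 31 had 0.526. Both air lungs are therefore unlike the silica lungs in a lymphocyte population as well as in exposure, and the 2 cannot be told apart in these samples. Large granular lymphocyte leukaemia is a known disease of old Fischer 344 rats; the labels give no pathology, and its part in these results was not tested.

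Inhaled crystalline silica is taken up by alveolar macrophages, which cannot digest it, and the lung responds with chemokines that draw in neutrophils and monocytes, with acute-phase and complement proteins from epithelium and macrophages, and with oxidative stress genes. Blood carries circulating leukocytes and reflects the lung only indirectly. A gene can differ between the tissues because it rises in silica lungs or because it is high in the air lungs, and the interaction alone does not separate these cases, so genes were divided by the direction of their lung difference.

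Of 16444 genes tested, 193 (1.17%) had a silica effect that differed between blood and lung at an adjusted p under 0.05 by edgeR's quasi-likelihood test, and 2189 had an unadjusted p under 0.05. In 92 genes (0.559%) the interaction was negative, meaning a larger silica minus air difference in lung, and in 101 (0.614%) it was positive. With scaling factors computed within each tissue the split was 78 negative and 175 positive, and the median interaction of all genes moved from -0.143 to 0.00 on the log2 scale. Of the 92 negative genes, 90 had risen in silica lungs, and all 101 positive genes were higher in the air lungs. The other 2, Kdelc1 (-1.80) and Tmed4 (-0.99), did not pass in lung. In lung itself 1413 genes passed (8.59%), of which 821 rose (4.99%) and 592 fell (3.6%). With scaling factors computed within each tissue 639 rose and 831 fell. From lung libraries alone 1542 rose and 1636 fell. The balance of rises and falls in lung therefore depends on the scaling and the fit, and the list counts below use the fit of both tissues. In blood no gene passed by edgeR's quasi-likelihood test (0%), with 1625 at an unadjusted p under 0.05. DESeq2 called 23 and limma with weights by group 0. With the sample number, merged over the lung pairs, as a random block limma called 2. When 1 library was left out edgeR called at most 2.

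Over the 11364 genes measured in both tissues 0.722% were negative and 0.889% positive, and over the 4682 measured in lung alone 0.192% were called, all negative. The 90 genes that rose in silica lungs had a median interaction of -2.24, a median lung difference of 2.41 and a median blood difference of 0.17 (all log2). Their blood differences ran from -2.22 to 1.67, only Cxcl11 and Orm1 lay beyond 1 in either direction, and 65 of 90 (72.2%) were above 0, against 44.1% of all genes tested. These shares are not alike, because genes with no blood count have a difference of 0 and cannot lie above it. Air blood 25 was the lowest air blood in several of the 90, among them S100a9 (782 CPM) and C3 (31.9 CPM). Its part in the share above 0 was not tested. The 101 genes high in the air lungs had a median interaction of 1.30, a median lung difference of -1.28 and a median blood difference of -0.01. Their blood differences were all smaller than 1 in size, from -0.68 to 0.57, and 50 of 101 were above 0.

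**Figure D1:**
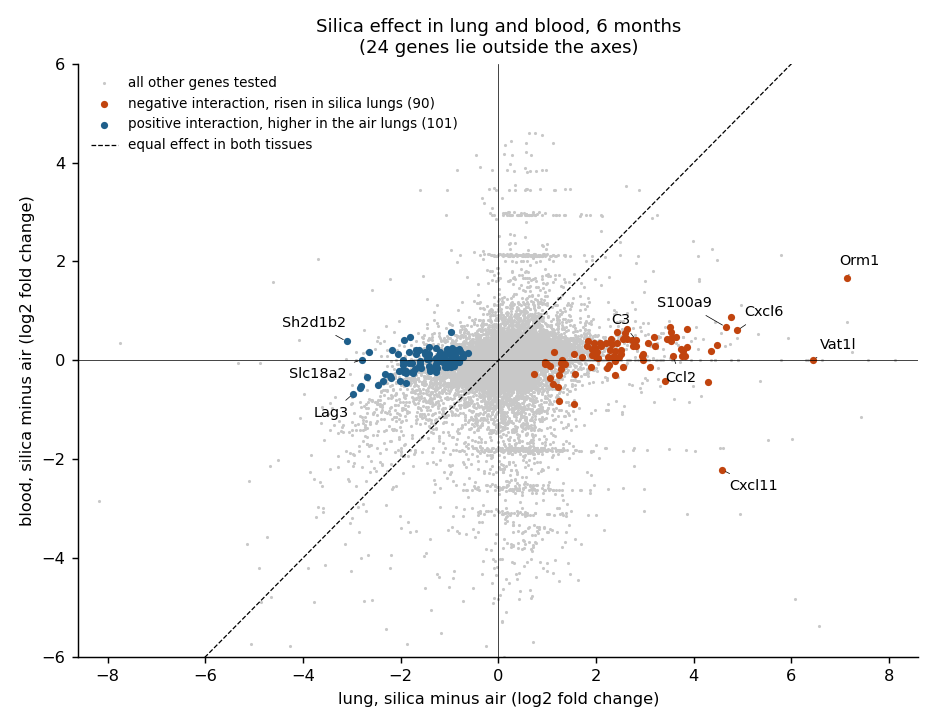
Silica minus air difference in lung (horizontal, log2) and in blood (vertical, log2) for each gene tested at 6 months; orange points are the 90 genes that rose in silica lungs with a negative interaction, blue points the 101 genes high in the air lungs with a positive interaction, grey points all others, and the dashed line marks equal effects. Both coloured sets spread along the lung axis and lie near 0 in blood; the grey horizontal stripes are genes with a few counts in blood, and 24 genes lie outside the axes.

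Of 28 chemokines tested, 3 had a negative interaction (Cxcl11, Cxcl6 and Ccl2) and none a positive one, with a median of -1.16, and 11 rose and 1 fell in lung. The median over all genes tested was -0.143. Without air lung 19-24 none was negative. Cxcl6 attracts neutrophils, Ccl2 attracts monocytes and Cxcl11 attracts activated T cells. Promoters of 26 of the 40 genes named by rule were found in the RefSeq table (build GRCr8), and the 250 bases before the start site were searched on both strands for letters bound by NF-kappaB, the factor that drives many chemokine genes. GGAANTTCC, the core of such a site and its own reverse complement, stood in 3 of 64 promoters of genes that rose in silica lungs (4.69%), in 0 of 66 of genes high in the air lungs and in 186 of 27457 of all genes (0.677%); this core was chosen after longer forms had been searched. TTCNNNGAA, a STAT motif, stood in 7.81%, 3.03% and 7.52%, and AGGTGTGA, a T-box motif, in 0 of 64, 0 of 66 and 0.958%. The 2 chemokine promoters with a match are shown because they belong to the leading genes, with the match in capitals, 87 bases before the start of Cxcl6 and 73 before that of Cxcl11; the stretches lie at chr14:17596471-17596529 (minus strand) and chr14:15973630-15973688 (plus strand).
Cxcl6: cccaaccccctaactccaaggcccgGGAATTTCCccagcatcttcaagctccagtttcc
Cxcl11: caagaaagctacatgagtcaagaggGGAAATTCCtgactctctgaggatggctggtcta

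Cxcl6, whose promoter match is shown above, was at 2.25 and 2.55 CPM in the air lungs and at 42.5, 54.1, 84.6, 81.8 and 64.2 CPM in the silica lungs. In blood it was at 0.22 to 1.08 CPM with air (median 0.459) and 0.30 to 1.99 CPM with silica (median 0.686). The lung groups were far apart and the blood groups overlapped. The difference was 4.89 ± 0.55 (SE, log2) in lung and 0.60 ± 0.41 in blood, an interaction of -4.29 ± 0.64 (adjusted p = 0.00386). Ccl2 was at 2.42 and 5.19 CPM in the air lungs and 21, 32.5, 64.4, 53.9 and 37.9 CPM in the silica lungs. Blood Ccl2 was at 1.00 to 3.28 CPM with air (median 1.25) and 1.29 to 2.01 CPM with silica (median 1.59), again overlapping, and the interaction was -3.49 ± 0.58 (adjusted p = 0.00732). Cxcl11 had the largest interaction, -6.80 ± 1.61 (adjusted p = 0.0406), but rests on few counts: it was at 0 and 0.364 CPM in the air lungs, 1.12 to 8.35 CPM in the silica lungs, 0 to 0.558 CPM in air blood and 0 to 0.118 CPM in silica blood, where 3 counts correspond to 0.0942 to 0.399 CPM. Its call was lost when 1 library was left out in 14 of 19 cases.

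Of 16 acute-phase genes tested, Orm1, Lcn2, Il1rn and Hp had a negative interaction and none a positive one (median -2.03), and 11 rose and 0 fell in lung. Without air blood 25, 7 were negative, and with either air lung left out 1 was. Orm1 encodes an acute-phase carrier glycoprotein; it was at 0.231 and 0.182 CPM in the air lungs, 4 counts in each, and at 34.6, 33.9, 31.2, 20.1 and 19.6 CPM in the silica lungs. Blood Orm1 was at 0.0651 to 0.377 CPM with air (median 0.238) and 0.266 to 1.20 CPM with silica (median 0.673). In blood 5 of 6 silica libraries were above every air library, at levels of 15 counts or fewer, and the blood difference of 1.67 ± 0.38 did not pass (adjusted p = 0.482). The interaction was -5.46 ± 0.68 (adjusted p = 0.000854), and it passed in all 19 fits that each left out 1 library. Lcn2, which encodes a protein that withholds iron from bacteria, rose from 3.69 and 4.65 CPM to 25.9, 42.4, 89.8, 60.5 and 44.4 CPM in lung. It stayed at 0.0591 to 0.407 CPM in all bloods, near the limit of detection, with an interaction of -3.6 ± 0.66 (adjusted p = 0.0114). Hp encodes haptoglobin, which binds free haemoglobin. Its lung levels were 26.2 and 42.1 CPM with air and 103 to 332 CPM with silica, its blood levels 22.9 to 61.1 CPM with air and 44.0 to 74.2 CPM with silica, and its interaction -2.06 ± 0.49 (adjusted p = 0.0405). The call for Hp was lost in 15 of 19 fits that each left out 1 library. Il1rn, the interleukin-1 receptor antagonist gene, had an interaction of -2.0 ± 0.39 (adjusted p = 0.0172).

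Among 23 complement entries, C3 and Cfb had a negative interaction and none a positive one, and 13 rose in lung (median lung difference 1.39). Without air blood 25, 8 were negative, and without air lung 19-24 none was. C3 is the protein on which all complement pathways converge. It was at 239 and 349 CPM in the air lungs and 1300, 1840, 2420, 2270 and 1670 CPM in the silica lungs, and at 31.9 to 90.6 CPM (median 70.7) and 76.3 to 104 CPM (median 90.1) in air and silica blood. The blood groups overlapped, with air blood 25 the lowest, and the interaction was -2.41 ± 0.40 (adjusted p = 0.00656). Cfb, the alternative pathway's factor B, rose from 476 and 549 CPM to 1270 to 3390 CPM in lung. In blood it lay between 2.13 and 6.38 CPM in both groups (interaction -2.17 ± 0.50, adjusted p = 0.0329), and its call was lost in 11 of 19 fits with 1 library left out. C4bpb, a subunit of the complement inhibitor C4b-binding protein, had an interaction of -4.73 ± 1.02 (adjusted p = 0.0251) at 0.0911 to 3.64 CPM in lung.

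Neutrophil genes were the largest named group among the negative interactions: 7 of 16 passed, none was positive, the median was -1.87, and 11 rose and 0 fell in lung. These genes are abundant in circulating neutrophils, and their blood levels were high in both exposure groups. S100a9, a subunit of the calprotectin dimer of neutrophils, was at 35.6 and 47.1 CPM in the air lungs and 494, 758, 1830, 1080 and 590 CPM in the silica lungs. Blood S100a9 was at 782 to 1970 CPM with air (median 1500) and 1790 to 3180 CPM with silica (median 2510). The lung groups did not overlap and the blood groups did. The difference was 4.65 ± 0.57 in lung and 0.68 ± 0.30 in blood (adjusted p = 0.491 in blood), an interaction of -3.98 ± 0.60 (adjusted p = 0.00386). Its partner S100a8 gave -3.22 ± 0.58 (adjusted p = 0.0102). Il1r2, the interleukin-1 decoy receptor, gave -2.95 ± 0.50 (adjusted p = 0.00775), and the chemokine receptor gene Cxcr2 -2.20 ± 0.48 (adjusted p = 0.0264). Csf3r, the receptor for the growth factor G-CSF (-2.52), and the lectin gene Fcnb (-2.08) also passed. Blood estimates of all 7 were above 0, from 0.20 to 0.68, and none passed. Air blood 25 had the lowest neutrophil sum of the 12 bloods, 1739 against 2994 to 6715 CPM. Without it 10 of 16 passed, and without air lung 19-24 none did.

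T cell genes went both ways. Of 22 tested, Ctla4, Foxp3, Cd5 and Cd3g had a negative interaction and Cd247 a positive one, and in lung 11 rose and 5 fell. Without air blood 25 the count was 12 negative and 5 positive, and with either air lung left out no T cell gene was negative. Cd3g, a chain of the T cell receptor complex, was at 2.48 and 3.10 CPM in the air lungs and 8.64, 11.3, 15.9, 9.91 and 19.8 CPM in the silica lungs. In blood it was at 10.7 to 63.2 CPM with air (median 37.2) and 35.5 to 45.3 CPM with silica (median 37.7). The interaction of -2.28 ± 0.55 (adjusted p = 0.0463) passed in only 2 of 19 fits that each left out 1 library. Ctla4, an inhibitory receptor, rose in lung from 0.288 and 0.228 CPM to 1.35 to 2.96 CPM (interaction -3.23 ± 0.64, adjusted p = 0.0177), and Foxp3, the regulatory T cell transcription factor, from 0.461 and 0.410 to 1.96 to 3.70 CPM (-2.86 ± 0.67, adjusted p = 0.0385). The Foxp3 call was lost in 14 of 19 fits with 1 library left out. Among 18 chemokine receptors Cxcr2 and Ccr4 passed, both negative, and without air blood 25, 8 did. Ccr4 (-2.37 ± 0.55, adjusted p = 0.0361) had similarly low lung levels and lost its call in 11 of 19 such fits, and the T cell surface receptor gene Cd5 gave -2.28 ± 0.47. Cd247, a signalling chain that NK cells also use, went the other way: 286 and 198 CPM in the air lungs against 21.9 to 58.2 CPM in the silica lungs (2.27 ± 0.50, adjusted p = 0.0276). Cd5 and Cd247 lie outside the naming rule and are given because they complete the list's calls.

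Oxidative stress genes regulated by the transcription factor NRF2 had 3 negative interactions among 20 (median -0.56), and 5 rose in lung. With either air lung left out none was negative. Hmox1, which breaks down haem, was at 39.8 and 44.6 CPM in the air lungs and 80.6, 122, 155, 135 and 135 CPM in the silica lungs, and its blood groups overlapped at 8 to 15.9 CPM (interaction -1.65 ± 0.34, adjusted p = 0.0221). Srxn1, which repairs oxidised peroxiredoxins, rose from 7.90 and 7.93 CPM to 18.0 to 34.4 CPM in lung (-1.61 ± 0.37, adjusted p = 0.0345). Sod2, the mitochondrial superoxide dismutase, rose from 109 and 130 CPM to 301 to 504 CPM (-1.44 ± 0.34, adjusted p = 0.0382). In Srxn1 and Sod2 all air bloods but 25 lay close together, at 8.09 to 9.63 and 133 to 150 CPM, and air blood 25 was at 3.33 and 65.4 CPM. Both calls were lost in 14 of 19 fits that each left out 1 library.

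Among alveolar type 2 cell genes, Lpcat1 and Abca3 had a negative interaction (2 of 13, median -1.37), and 11 rose in lung. Lpcat1 makes surfactant phospholipid; it was at 301 and 370 CPM in the air lungs and 528, 669, 923, 881 and 717 CPM in the silica lungs, with 9.66 to 13.8 CPM in all bloods (-1.45 ± 0.25, adjusted p = 0.00839). Abca3 loads surfactant lipid into lamellar bodies. It was at 374 and 446 CPM in the air lungs, 607 to 856 CPM in the silica lungs and 14.2 to 21.6 CPM in all bloods (-1.07 ± 0.24, adjusted p = 0.0276). Abca3 lost its call in 7 of 19 fits with 1 library left out. Without air blood 25 the list had 6 negative interactions, and without air lung 19-24 none. Chi3l1, a chitinase-like gene of macrophages and neutrophils, had lung levels of 120 and 175 against 515 to 1400 CPM (-2.31 ± 0.50, adjusted p = 0.0264). Ifit1, the 1 interferon-stimulated gene of 28 that passed, had 0.519 and 0.228 against 2.52 to 5.47 CPM (-3.09 ± 0.63, adjusted p = 0.0202), with counts shared with related transcripts.

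The remaining genes named for the size of their interaction include several with little blood expression. Vat1l had the joint smallest p-value (adjusted p = 0.000404): it was at 0.115 and 0.0911 CPM in the air lungs, 3 counts or fewer, and at 7.18, 8.81, 11.2, 13.2 and 5.35 CPM in the silica lungs. Blood Vat1l was at 0.22 to 1.12 CPM with air and 0.416 to 0.813 CPM with silica, the groups overlapping, and the fitted interaction was -6.43 ± 0.74, whose size depends on the prior count at such low levels. Muc20, a membrane mucin gene, had lung levels of 0.461 and 1.14 against 6.17 to 15.9 CPM (-3.51 ± 0.58, adjusted p = 0.00656). Irg1, whose enzyme makes itaconate in activated macrophages, had 0.403 and 0.501 against 2.97 to 7.35 CPM (-3.69 ± 0.64, adjusted p = 0.00837). Ly6al (-3.59), LOC690813 (-3.87) and RGD1565617 (-3.74) complete the set, all at or under 0.638 CPM in the air lungs. LOC690813 lost its call in 10 of the fits that left out 1 library other than an air lung.

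**Figure D2:**
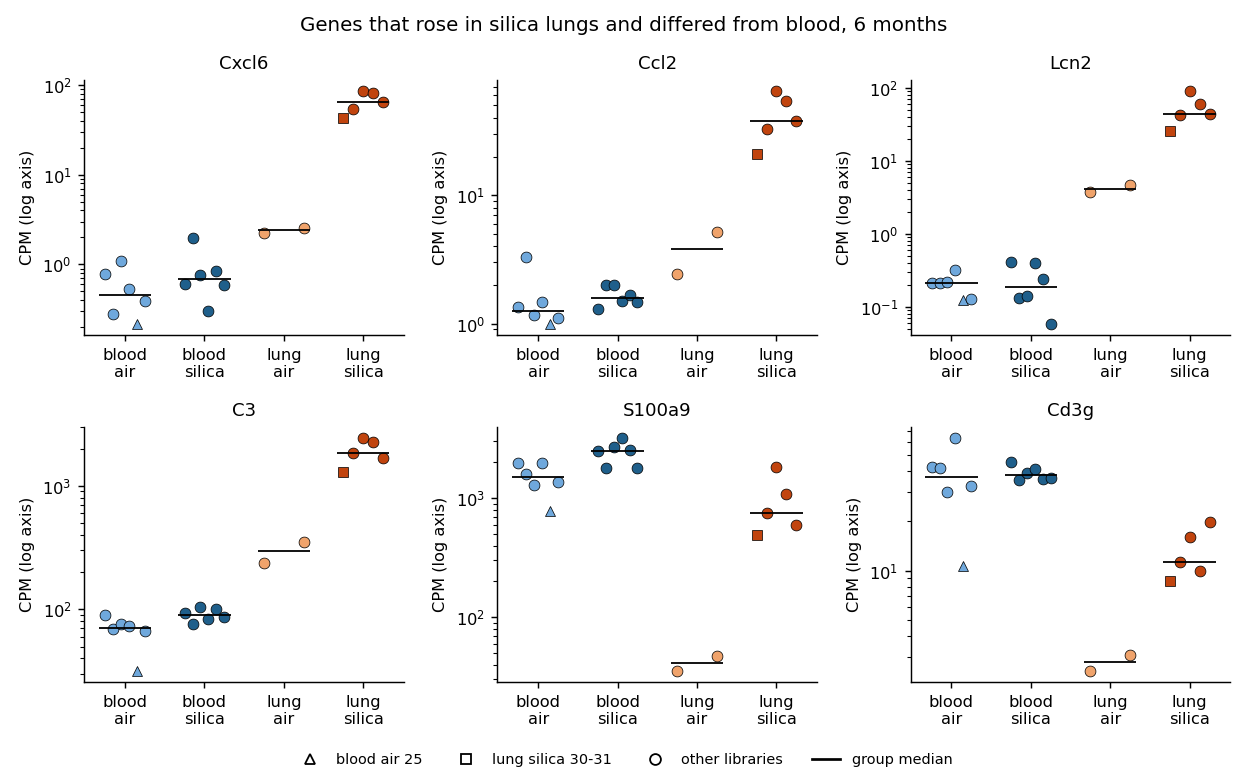
CPM (log axis) of 6 genes in each library of 4 groups at 6 months, with a bar at the group median, a triangle for air blood 25 and a square for silica lung 30-31. In each panel the 5 silica lungs lie above the 2 air lungs while the blood groups overlap; Cxcl6 runs from 2.25 to 84.6 CPM in lung and Cd3g from 2.48 to 19.8 CPM.

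Many genes of the lung response could not be compared with blood. Of the 821 that rose in lung, 601 were measured in both tissues and 81 of these (13.5%) had an interaction, while 214 were measured in lung alone and 8 of these (3.74%) had one. The median standard error of the interaction was 0.401 in the former and 1.64 in the latter, and 73 of the 214 had no count in any blood library. Lpo, which encodes the airway enzyme lactoperoxidase, had the largest lung rise (8.12, adjusted p = 2.79e-05), from 0.749 and 1.32 CPM to 201 to 337 CPM, and 0 counts in all 12 bloods. Chia, the acidic chitinase, rose from 70.2 and 123 CPM to 1370 to 4160 CPM in lung and was likewise at 0 in blood. Retnla and Slc26a4 had at most 1 and 3 counts in a blood library. None of the 4 had an interaction past the threshold: for Slc26a4 it was -8.05 ± 2.56 (adjusted p = 0.154), and for Lpo and Chia blood gave no estimate to set against the lung. A blood rise below 3 counts was not detectable at this depth.

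The 101 genes high in the air lungs were all measured in both tissues. In each of them both air lungs were above all 5 silica lungs, as all 5 silica lungs were above both air lungs in each of the 90 risen genes. Sh2d1b2, an adaptor of NK cell activating receptors, had the largest positive interaction. It was at 16 and 5.74 CPM in the air lungs and 1.40, 1.84, 0.47, 0.923 and 0.881 CPM in the silica lungs, and in blood at 13.1 to 33.5 CPM with air (median 29.3) and 28.1 to 45.8 CPM with silica (median 35). The lung difference was -3.11 ± 0.38 and the blood difference 0.38 ± 0.25, an interaction of 3.49 ± 0.46 (adjusted p = 0.000987). In every sample its estimated count was not a whole number, so some reads were shared with related transcripts, and how many is not known. Slc18a2, the vesicular monoamine transporter, was at 24.7 and 12.5 CPM in the air lungs, 1.82 to 3.27 CPM in the silica lungs and 9.24 to 15.9 CPM in all bloods (2.81 ± 0.33, adjusted p = 0.000404), and it passed in all 19 fits that each left out 1 library.

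Lymphocyte receptors and their signalling genes made up much of the rest of the named genes. Lag3, an inhibitory receptor, was at 63.9 and 37.0 CPM in the air lungs and 8.41, 5.61, 5.70, 3.55 and 5.85 CPM in the silica lungs. Its blood levels were 4.49 to 9.38 CPM in 5 air bloods, 19.8 CPM in air blood 25 and 3.6 to 7.76 CPM with silica. The interaction of Lag3 was 2.30 ± 0.52 (adjusted p = 0.0313), or 2.63 without air blood 25. Its call was lost in 7 of the fits that left out 1 library other than an air lung. Prkcb, a protein kinase C of lymphocyte receptor signalling, was at 272 and 167 CPM in the air lungs, 66.4 CPM in silica lung 30-31 and 17.6 to 27.7 CPM in the other silica lungs. In blood it was at 83.1 CPM in air blood 25 and 26.0 to 39.6 CPM in all others (2.34 ± 0.50, adjusted p = 0.0241; 2.6 without air blood 25). Cd27, a costimulatory receptor, gave 2.29 ± 0.49 (adjusted p = 0.0247), Cd244, an NK cell receptor, 1.81 ± 0.37 (adjusted p = 0.0206), and the integrin gene Itgax, found on alveolar macrophages, dendritic cells and some lymphocytes, 1.93 ± 0.34 (adjusted p = 0.00839). Cd244 was at 81 CPM in air lung 19-24, 30.9 CPM in air lung 20-25 and 28.3 CPM in silica lung 30-31. The other silica lungs were at 10.3 to 15.5 CPM, and without air lung 19-24 its interaction was 1.0. Itgax was at 553 and 385 CPM in the air lungs, 195 CPM in silica lung 30-31 and 84.1 to 93.8 CPM in the other 4.

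Tk1, the thymidine kinase of dividing cells, was at 81.3 and 66.5 CPM in the air lungs, 30.5 CPM in silica lung 30-31 and 13.5 to 16.2 CPM in the others. In blood it ranged from 172 to 1080 CPM, highest in silica blood 31, and its interaction of 2.36 ± 0.55 (adjusted p = 0.0385) was lost in 12 of 19 fits that each left out 1 library. Mcpt9, a mast cell protease gene, had an interaction of 2.82 ± 0.63 (adjusted p = 0.0287) that rests on air lung 19-24, at 6.34 CPM against 1.14 CPM in air lung 20-25 and 0.252 to 0.841 CPM in the silica lungs. Without air lung 19-24 it was 1.18 (adjusted p = 0.858). Reep2, an endoplasmic reticulum shaping protein, gave 2.38 ± 0.44 (adjusted p = 0.0121).

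The libraries that stood apart in NK and large granular lymphocyte genes were also looked up in these 101 genes. The libraries of 6 months chose these genes, so the positions are a description. The shares of all genes are not what unchanged genes chosen in this way would give. Air blood 25 was the lowest air blood in some of the 101, among them Sh2d1b2, Reep2 and Tk1. Whether the 101 genes follow this lymphocyte population was not tested. Air lung 19-24 was the higher of the 2 air lungs in 88 of 101 (87.1%, against 52.6% of all genes tested). Silica lung 30-31 was the highest silica lung in 87 of 101 (86.1%, against 23.2% of all genes tested). Air blood 25 was the highest air blood in 53 of 101 (52.5%, against 34.6%). The 90 risen genes, chosen by the same libraries, were also uneven. In them air lung 20-25 was the higher air lung in 73 (81.1%, against 47.4%). Silica lung 33 was the highest silica lung in 56 (62.2%, against 34.5%), and air blood 25 the highest air blood in 6 (6.67%, against 34.6%). The marker list itself had 2 positive interactions among 35, Sh2d1b2 and Cd244, and none negative, with a median interaction of 1.51. In lung 22 of the 35 fell and 2 rose, with a median difference of -2.18, and in blood the median was -0.70 and none passed. Nkg7, a cytotoxic granule gene, was at 454 and 473 CPM in the air lungs, 119 CPM in silica lung 30-31 and 34.9 to 50.9 CPM in the others. In blood Nkg7 was at 255 CPM in air blood 25, 30.8 to 54.6 CPM in the other air bloods and 15.3 to 57.6 CPM with silica. Its interaction was 1.71 ± 0.80 (adjusted p = 0.364) with all libraries and 2.50 ± 0.49 (adjusted p = 0.00349) without air blood 25, and it is named here after its values were seen. Without that library 16 of the 35 genes were positive and 2 negative.

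**Figure D3:**
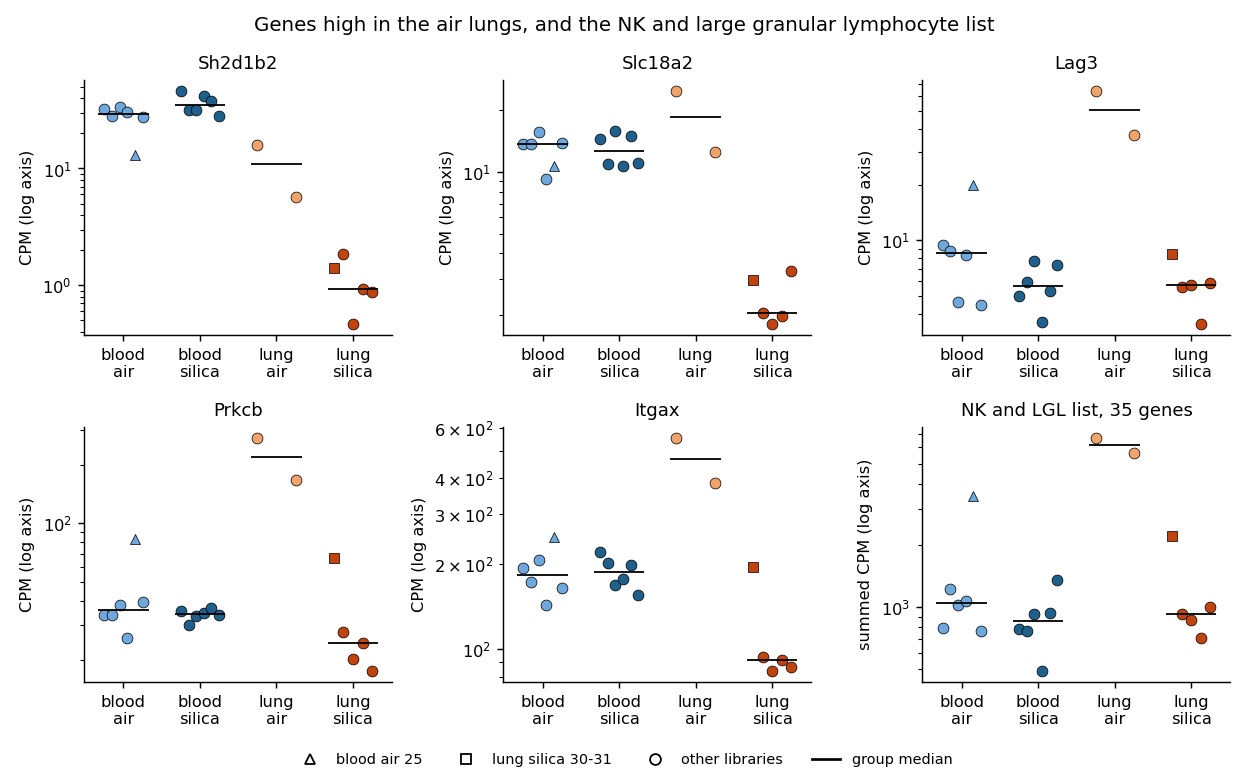
CPM (log axis) of 5 genes high in the air lungs, and the summed CPM of 35 NK and large granular lymphocyte genes, in each library at 6 months; symbols as in the plot of risen genes, and CPM is scaled within each tissue, so heights are comparable within lung and within blood only. In the list sum the air lungs (6642 and 5647 CPM) lie above all silica lungs, of which 30-31 is the highest (2225 CPM), and air blood 25 is the highest blood (3464 CPM); in Sh2d1b2 it is the lowest blood (13.1 CPM).

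Several lists moved in lung with few or no calls in the interaction. Of 12 genes of MHC class II antigen presentation, 9 rose in lung and none had an interaction (median -1.44), and of 26 lysosome genes 10 rose and none did (median -0.69). Air blood 25 was lowest in MHC class II genes, 294 CPM summed against 903 to 1432 CPM in the other bloods. Without it 9 of the 12 MHC class II genes and 14 of the 26 lysosome genes had a negative interaction, among them Cd74, the class II invariant chain gene, at -1.74 ± 0.40 (adjusted p = 0.0103). Of 26 proliferation genes 9 fell in lung and none had an interaction (median 0.92); without air blood 25, 5 were positive. The macrophage, monocyte, dendritic cell, B cell, plasma cell and mast cell and eosinophil lists had between 4 and 10 members that rose in lung, and of their members only Itgax and Mcpt9 had an interaction, both positive. Without air blood 25 these lists had negative interactions as well: 7 in lipid-associated macrophages, 4 in alveolar macrophages, 7 in monocytes, 3 in dendritic cells, 6 in B cells, 5 in plasma cells and 6 in mast cells and eosinophils. Cholesterol synthesis, red cell, endothelial, ciliated, alveolar type 1, fibroblast and matrix lists had no interaction and at most 1 member that rose in lung, and without air blood 25 only the matrix list had one, which was negative. The lists for airway host defence (4 of 13 rose in lung), lymphoid tissue organisation (3 of 10) and platelets (2 of 16) had no interaction with all libraries, and 2, 5 and 2 negative ones without air blood 25.

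How many genes passed depended on single libraries. Without air blood 25 the count was 824 negative and 430 positive, and all 193 genes were among them. Without silica lung 30-31 it was 197 and 192, also with all 193, and without both of these libraries 1040 and 591. The 2 air lungs carry the comparison: without air lung 19-24, 2 negative (Orm1 and Vat1l) and 1 positive (Slc18a2) remained, and without air lung 20-25 the count was 11 and 35, with 43 of these 46 among the 193. Without silica lung 34 the count was 44 and 53, and without air blood 27 it was 57 and 67. Without air blood 21 there were 60 negative genes, and without silica lung 35 there were 67 positive genes. Every one of the 193 kept its sign in each fit that left out 1 library. Of the 40 named genes all passed without air blood 25, 14 without air lung 20-25 and 3 without air lung 19-24, and 21 passed in every fit that left out a library other than an air lung.

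**Figure D4:**
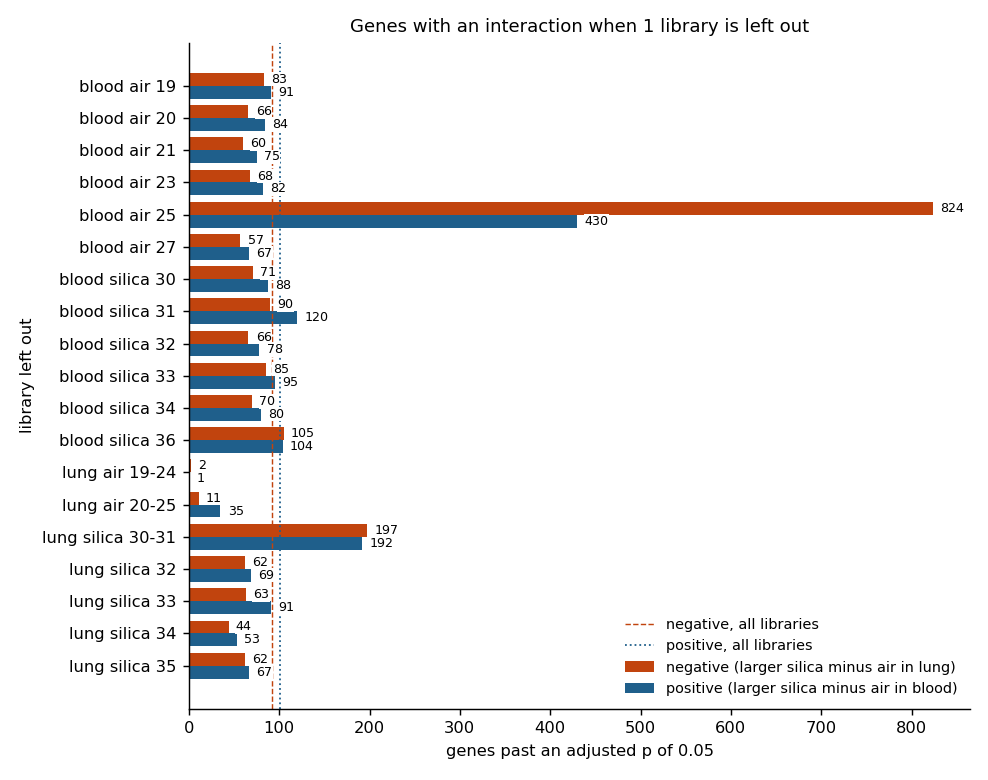
Number of genes past an adjusted p of 0.05 (horizontal) when each of the 19 libraries in turn was left out (vertical), with orange bars for negative and blue bars for positive interactions and lines at the counts with all libraries (92 and 101). The counts run from 2 and 1 without air lung 19-24 to 824 and 430 without air blood 25.

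Because only 2 air lungs were left at 6 months, the lungs of 1 day, from other samples of the series, served as a second reference. All lungs were put on a common scale. The time and the table of a sample cannot be told apart here. Pairs among the 6 air lung samples of 1 day were also averaged, which left 4 libraries, and how alike those pairs were is not given here. The 2 air lungs and 5 silica lungs of 6 months also chose these genes, so their positions below are a description, and the shares of all genes beside them are not what unchanged genes chosen in this way would give. Of the 90 genes that rose in silica lungs, 74 (82.2%) had all 5 silica lungs of 6 months above the 4 air libraries of 1 day, against 10.6% of all genes tested. In 69 of the 90 (76.7%, against 30.6%) the air lungs of 6 months were also below those of 1 day. For 54 genes both held, among them S100a9, C3, Lcn2 and Hp. For 19 the silica lungs were above while the air lungs of both times overlapped, among them Cxcl6, Ccl2, Orm1, Vat1l, Chi3l1 and Hmox1. For 15, including Cd3g, Abca3 and Csf3r, the silica lungs of 6 months overlapped the air lungs of 1 day and the air lungs of 6 months were below them. Cd3g was at 8.83 to 20.1 CPM in the silica lungs of 6 months, 8.17 to 14.3 CPM in the air lungs of 1 day and 2.54 to 3.20 CPM in the air lungs of 6 months.

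All 101 positive genes were higher in the air lungs of 6 months than in every air lung of 1 day, against 34.3% of all genes tested. In 80 of them the silica lungs of 6 months overlapped the air lungs of 1 day, and in 21 they lay above. Prkcb was at 173 to 279 CPM in the air lungs of 6 months, 17.9 to 67.9 CPM in the silica lungs of 6 months and 20.1 to 31.1 CPM in the air lungs of 1 day. Itgax was at 398 to 567, 86.5 to 199 and 38.5 to 71.3 CPM in the same groups, so it was raised in both exposure groups at 6 months relative to air at 1 day. The NK and large granular lymphocyte sum was 5840 to 6820 CPM in the air lungs of 6 months, 710 to 2270 CPM in the silica lungs of 6 months and 703 to 1510 CPM in the air lungs of 1 day. The neutrophil sum was 285 to 387, 1330 to 3520 and 449 to 551 CPM.

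**Figure D5:**
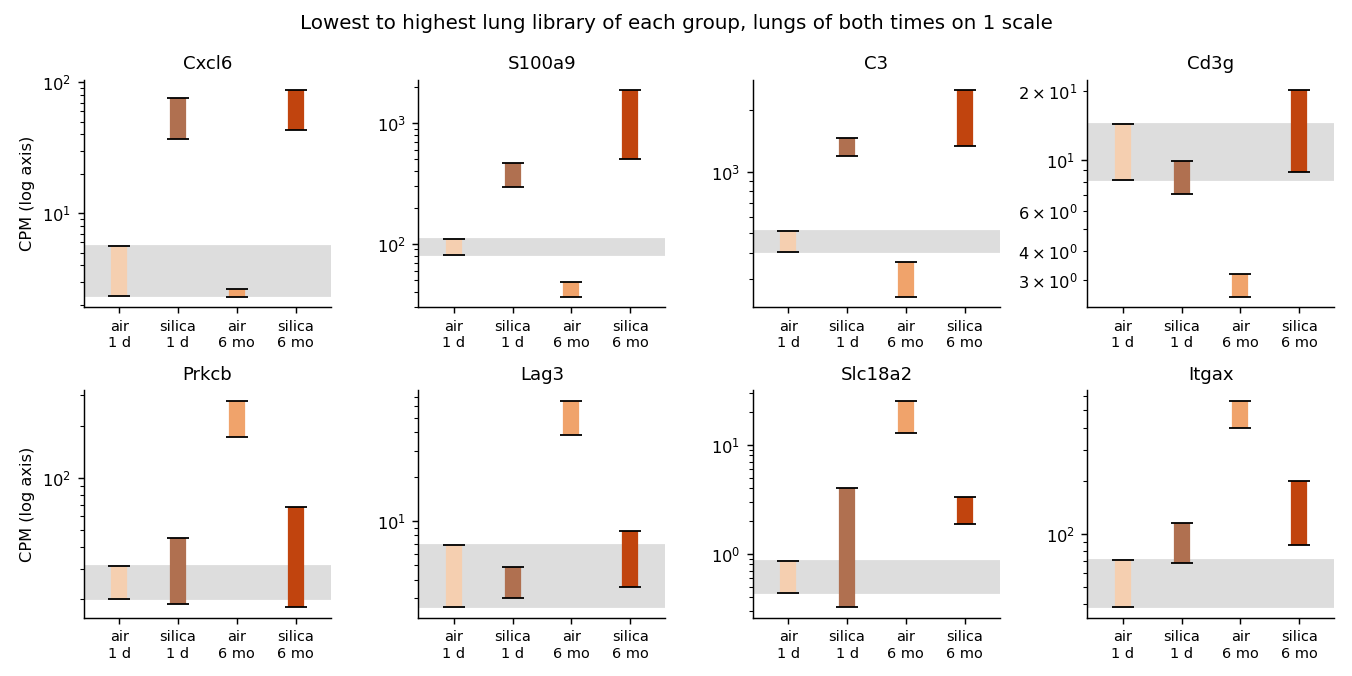
Range from the lowest to the highest lung library (CPM, log axis) in the air and silica groups of 1 day (1 d) and 6 months (6 mo) for 8 genes, with the range of the air lungs of 1 day shaded. Cxcl6, S100a9 and C3 are above the shaded range in silica lungs at both times, Cd3g lies wholly below it only in the air lungs of 6 months, and the 4 genes of the lower row are above it in the air lungs of 6 months.

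The same interaction at 1 day after exposure, in other samples of the same design (24 samples, 22 libraries), passed in 31 of 16148 genes (0.192%), 28 negative (0.173%) and 3 positive (0.0186%), with 240 genes past the threshold in lung (1.49%), 217 higher (1.34%) and 23 lower (0.142%), and none in blood (0%). Of the 90 genes that rose in silica lungs at 6 months, 14 (15.6%) had a negative interaction at 1 day and 84 had a negative estimate, with a median of -0.50, and 35 rose in lung. Cxcl6 gave -3.97 ± 0.41 at 1 day (adjusted p = 1.79e-05) and Ccl2 -3.25 ± 0.41 (adjusted p = 0.000222), against -4.29 and -3.49 at 6 months. Orm1 (-3.76), Vat1l (-5.01), C3 (-1.26), Muc20 (-2.31), Ly6al (-3.03), Chi3l1 (-1.21), Il1r2 (-1.45), Sod2 (-1.17) and Srxn1 (-0.82) also passed at 1 day. S100a9 (-1.31, adjusted p = 0.329) and Lcn2 (-2.85, adjusted p = 0.111) did not, although both rose in lung. The T cell genes Cd3g (0.12), Foxp3 (-0.49) and Ctla4 (-0.50) did not pass either. Of the 101 genes high in the air lungs none had an interaction at 1 day, the median was 0.04, and 1 rose and 0 fell in lung. The difference between the times was not tested.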

How the data were processed

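The values deposited by the authors are estimated counts per gene in a table for each tissue and time, with 30045 gene identifiers. Salmon 1.10.1, STAR 2.6.1d, Trim Galore 0.6.7, cutadapt 3.4 and bcl2fastq 2.19, and the build Rnor_6.0, are listed per the submitters' processing notes without saying what each did. The annotation release was not given in those notes. Blood RNA was depleted of globin messages and libraries were stranded and poly(A)-selected, per the labels' protocols. Column names identified the samples, with 0 columns unmatched. Reads shared between similar transcripts give counts that are not whole (tolerance 1e-06): this held in 100% of the 22 samples for Sh2d1b2, Itgax and Ifit1, 72.7% for Mcpt9, 45.5% for Cd27 and 22.7% or less for the other named genes. These are shares of samples and not of reads, so how far those levels are uncertain is not known.

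The lung pairs were averaged and estimated counts were rounded to whole numbers. The 4 groups of 6 months were fitted together with 1 mean per group in edgeR 4.0.16 (R 4.3.3). Genes were kept by filterByExpr (10 counts in enough libraries, 15 in all), scaled by TMM over all libraries and tested with the robust quasi-likelihood F test, with Benjamini-Hochberg adjustment over all genes tested and a threshold of 0.05. A gene counts as measured in a tissue if it passes the same filter there. CPM levels use TMM within each tissue; on the scale over all libraries the order of blood and lung levels changed for many genes. Alternatives used DESeq2 1.42.0 and limma 3.58.1, and the pipeline was tested on simulated data.

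The members, 31 gene lists and rules were chosen with earlier results of these data known. Genes were named if the interaction passed and any group averaged 1 CPM or more: the 8 largest negative and 8 largest positive interactions measured in both tissues, the 4 largest negative measured in lung alone, and up to 3 per list; 3 further parts of the rule, for positive interactions measured in lung alone and for genes that passed in blood, named none. List members absent from the tables under their names were Ccr2, Ackr3, Chil1, Mt1, Ly6c, Chil3, Jchain, Igha, Fasl, Hbq1, Cxcl15, Hc, Npnt, Cfap52 and Il7r. Floors of 3 counts cover counting error only. The values of 1 list member are not reported here.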

Additional observations from a re-analysis of the deposited data

Results flagged for a closer look

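The silica effect differed between blood and lung, by the interaction itself, in 193 genes. Among the named genes it was negative (log2) for Cxcl11 (-6.80), Vat1l (-6.43), Orm1 (-5.46), C4bpb (-4.73), Cxcl6 (-4.29), S100a9 (-3.98), LOC690813 (-3.87), RGD1565617 (-3.74), Irg1 (-3.69), Lcn2 (-3.60), Ly6al (-3.59), Muc20 (-3.51), Ccl2 (-3.49), Ctla4 (-3.23), S100a8 (-3.22), Ifit1 (-3.09), Il1r2 (-2.95), Foxp3 (-2.86), C3 (-2.41), Ccr4 (-2.37), Chi3l1 (-2.31), Cd3g (-2.28), Cxcr2 (-2.20), Cfb (-2.17), Hp (-2.06), Hmox1 (-1.65), Srxn1 (-1.61), Lpcat1 (-1.45), Sod2 (-1.44) and Abca3 (-1.07). It was positive for Cd244 (1.81), Itgax (1.93), Cd27 (2.29), Lag3 (2.30), Prkcb (2.34), Tk1 (2.36), Reep2 (2.38), Slc18a2 (2.81), Mcpt9 (2.82) and Sh2d1b2 (3.49).

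In 120 groups of 5 or 6 libraries, 40 named genes in 3 groups each, 16 libraries lay far from the rest of their group by Dixon's criterion, where chance flags about 1 in 20 groups. Air blood 25 was the outlying library in 8 of them: it was low in LOC690813 (0.22 CPM), Ly6al (0.157 CPM), Foxp3 (0.942 CPM), Srxn1 (3.33 CPM), Sod2 (65.4 CPM) and Sh2d1b2 (13.1 CPM), and high in Lag3 (19.8 CPM) and Prkcb (83.1 CPM). Silica lung 30-31 was high in Itgax (195 CPM), Prkcb (66.4 CPM) and Tk1 (30.5 CPM). Silica blood 31 was high in Cxcl6 (1.99 CPM) and Tk1 (1080 CPM) and low in Cd244 (19.4 CPM). Air blood 19 was high in Irg1 (3.10 CPM) and air blood 20 in Ccl2 (3.28 CPM).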

How the results depend on the processing

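Counts below are negative and positive interactions, then genes risen in silica lungs and genes high in the air lungs (92, 101, 90 and 101 with all libraries). DESeq2 gave 516, 279, 450 and 267, limma with weights by group 322, 284, 312 and 283, and lung pairs kept separate 527, 270, 471 and 264. TMM within each tissue gave 175 positive, all high in the air lungs, and genes kept in each tissue 143 negative. Leaving out each library gave 2 to 824, 1 to 430, 2 to 774 and 1 to 422; leaving out air blood 25 and silica lung 30-31 together, an alternative chosen after seeing the data, gave 1040, 591, 984 and 573. The cause of these changes was not tested. RLE factors, no filter and a minimum interaction of 1 stayed within 1.5 times. The lung contrast from lung libraries alone keeps the interaction calls by construction, and gave 88 risen genes and 101 high in the air lungs. In lung itself it called 1542 genes higher and 1636 lower with silica, against 821 and 592 in the main fit. All 193 genes kept their sign in every setting that gave them a value. Correlations between lung and blood were -0.0856 to 0.159 for same-numbered libraries and -0.19 to 0.13 for differently numbered ones. With 2 air lungs the deviations from their mean mirror each other, so the air libraries cannot show a pairing. Whether equal numbers mean the same rat cannot be told from these values. The fit with the replicate number as a fixed block, on 14 libraries, called 0 and 0 genes, against 3 and 1 (2 risen, 1 high in the air lungs) on these libraries with no block. As a random block in limma the merged number gave 91 and 108, with a correlation of -0.0968. The lung side rests on 2 air libraries. Genes with no count in blood could not be compared, and interactions of genes near 3 counts in blood are uncertain. Among the named genes Cxcl11, Lcn2 and C4bpb passed at such levels. Orm1 and Cxcl6 also had few counts in a blood library, 1 to 15 and 3 to 15.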
